A study of Rattus norvegicus and Ovis aries with 113 samples.

Results

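The SLC30 genes encode zinc transporters, and 10 of them, SLC30A1 to SLC30A10, were followed here through brain, sperm and ovary of sheep and rat. They were picked by symbol, with letters set to capitals. All 10 were in both count tables, as 10 of 31304 genes in the sheep table and 10 of 38675 in the rat table. The family was singled out with values of these data in view, among them the opposite directions of SLC30A2 in sheep and rat sperm. The contrast of sperm with brain is therefore a description, and no p-value is given for it. Where the call rule is applied to that contrast, the outcome is not read as a test.

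RNA was sequenced from 5 post-pubertal male sheep (numbers 687, 688, 690, 694 and 699), each giving 10 brain regions from 1 hemisphere and 1 sperm sample. The neocortical regions were frontal (FC), prefrontal (PC), motor (MC), posterior parietal (PPC) and visual cortex (VC), and the rest were entorhinal cortex (EC), hippocampus (HC), basal ganglia (BG), pons and cerebellum (CB). From Sprague Dawley rats came the whole brain and the sperm of 15 post-pubertal males, with the sperm taken as seminal fluid, and the whole brain and the ovary of 14 females. The labels name no engineered allele and no treatment. The sheep and rat libraries were made with different kits, so species and library preparation cannot be told apart.

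Mammalian SLC30 proteins lower the zinc concentration of the cytosol by moving zinc out of the cell or into organelles and vesicles. The SLC39 importers act in the opposite direction, and metallothioneins bind zinc inside the cell. In brain the family is best known for SLC30A3, which fills synaptic vesicles of glutamatergic neurons with zinc, and in secretory tissues for members that load granules. SLC30A10 is known mainly as an exporter of manganese.

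The 2 rat promoters of Slc30a2 are shown first because this gene had the widest range of levels in the rat libraries, and that of Slc30a1 because it is the member best known to be induced by zinc. Each window runs from 250 bases before to 50 after a start site in GRCr8, from RefSeq, and capitals mark the core of a metal response element, the motif bound by the zinc sensor MTF1. The core was searched as TGCACNC or TGCGCNC on both strands, where overlapping matches were counted separately.
Slc30a2, first start, chr5:151843201-151843500, plus strand: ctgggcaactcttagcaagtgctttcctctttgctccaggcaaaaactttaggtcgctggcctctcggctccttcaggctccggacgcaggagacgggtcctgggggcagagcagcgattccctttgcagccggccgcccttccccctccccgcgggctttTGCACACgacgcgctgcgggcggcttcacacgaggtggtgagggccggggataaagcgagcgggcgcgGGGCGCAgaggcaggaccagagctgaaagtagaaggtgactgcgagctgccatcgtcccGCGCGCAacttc
Slc30a2, second start, chr5:151843931-151844230, plus strand: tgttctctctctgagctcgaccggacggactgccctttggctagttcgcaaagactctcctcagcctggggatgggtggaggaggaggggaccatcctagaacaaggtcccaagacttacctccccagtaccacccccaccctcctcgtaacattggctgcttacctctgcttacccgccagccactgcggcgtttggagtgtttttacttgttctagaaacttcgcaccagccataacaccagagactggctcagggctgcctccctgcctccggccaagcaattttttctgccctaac
Slc30a1, chr13:106021769-106022068, plus strand: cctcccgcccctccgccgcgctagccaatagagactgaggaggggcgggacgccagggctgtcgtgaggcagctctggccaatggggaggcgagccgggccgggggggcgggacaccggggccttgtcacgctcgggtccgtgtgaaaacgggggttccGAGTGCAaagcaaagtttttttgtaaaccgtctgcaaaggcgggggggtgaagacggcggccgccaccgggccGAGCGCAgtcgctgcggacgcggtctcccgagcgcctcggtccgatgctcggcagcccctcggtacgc

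The first Slc30a2 window held 3 core matches, which begin at -89, -21 and 38 with the start base as 0, and the Slc30a1 window held 2, at -91 and -18. The second Slc30a2 window held 0. Of the 8 windows found for 7 members, 4 held the core, and over all 33469 rat promoter windows of this length the share was 24.2%. A match is a description of the letters and not a measured binding site.

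Levels are counts per 1000000 (CPM) scaled by trimmed mean of M values (TMM) factors, computed once for each species, and they were compared within a gene and not between genes. Library totals ran from 13.7 to 119 M (1000000) counts. Motor cortex of sheep 687 and entorhinal cortex of sheep 688 stood apart. Over the 2000 most variable genes the first correlated at 0.945 with the hippocampus mean and at 0.824 with the other motor cortex libraries, and the second at 0.976 with the motor cortex mean and at 0.869 with its own region. Rat brain libraries 1 (female) and 4 (male) were mostly ribosomal RNA, with 90.8% and 86.3% of their counts in 4 entries, and rat sperm libraries 16 and 17 held only 565 and 571 genes with 1 to 19 counts, against 3419 to 10973 in the other 13. In the 5 sheep sperm libraries 4 placeholder entries took 22.4 to 85.2% of the counts, and the TMM factors were 0.114 to 0.305. Each library of a group came from its own animal.

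Markers of each labelled tissue were checked as summed CPM of the plain library totals. The 10 spermatid and sperm markers (PRM1, TNP1, ODF1 and others) summed to 288 to 26591 in rat sperm and to at most 19.1 in rat brain. In sheep sperm they summed to 52.3 to 1290, which overlaps the highest sheep brain library, 55.1. The 6 granulosa markers summed to 1114 to 4535 in rat ovary and the 6 oocyte markers to 26.0 to 134, against at most 24.9 and 1.35 in female brain.

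Across the 10 sheep regions, SLC30A3 was the member with the widest span. Its mean was highest in the 5 neocortical regions, lower in entorhinal cortex and hippocampus, which overlapped neocortex, and near the bottom of its range in pons, basal ganglia and cerebellum. The mean of SLC30A10 was highest in hippocampus and lowest in cerebellum, and SLC30A2 was high in hippocampus and low in cerebellum and basal ganglia. Differences over the regions were called for 8 of the 10 members by edgeR's quasi-likelihood test (adjusted p below 0.05), beside 76.7% of all 21147 genes tested, so the count is close to that of genes at large. Without sheep 687 it was 5, and the count over all genes was lower too, at 14389 of 21170 against 16224. SLC30A4 and SLC30A7, a vesicular and a secretory pathway transporter, were not called, with adjusted p of 0.685 and 0.760.

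**Figure D1:**
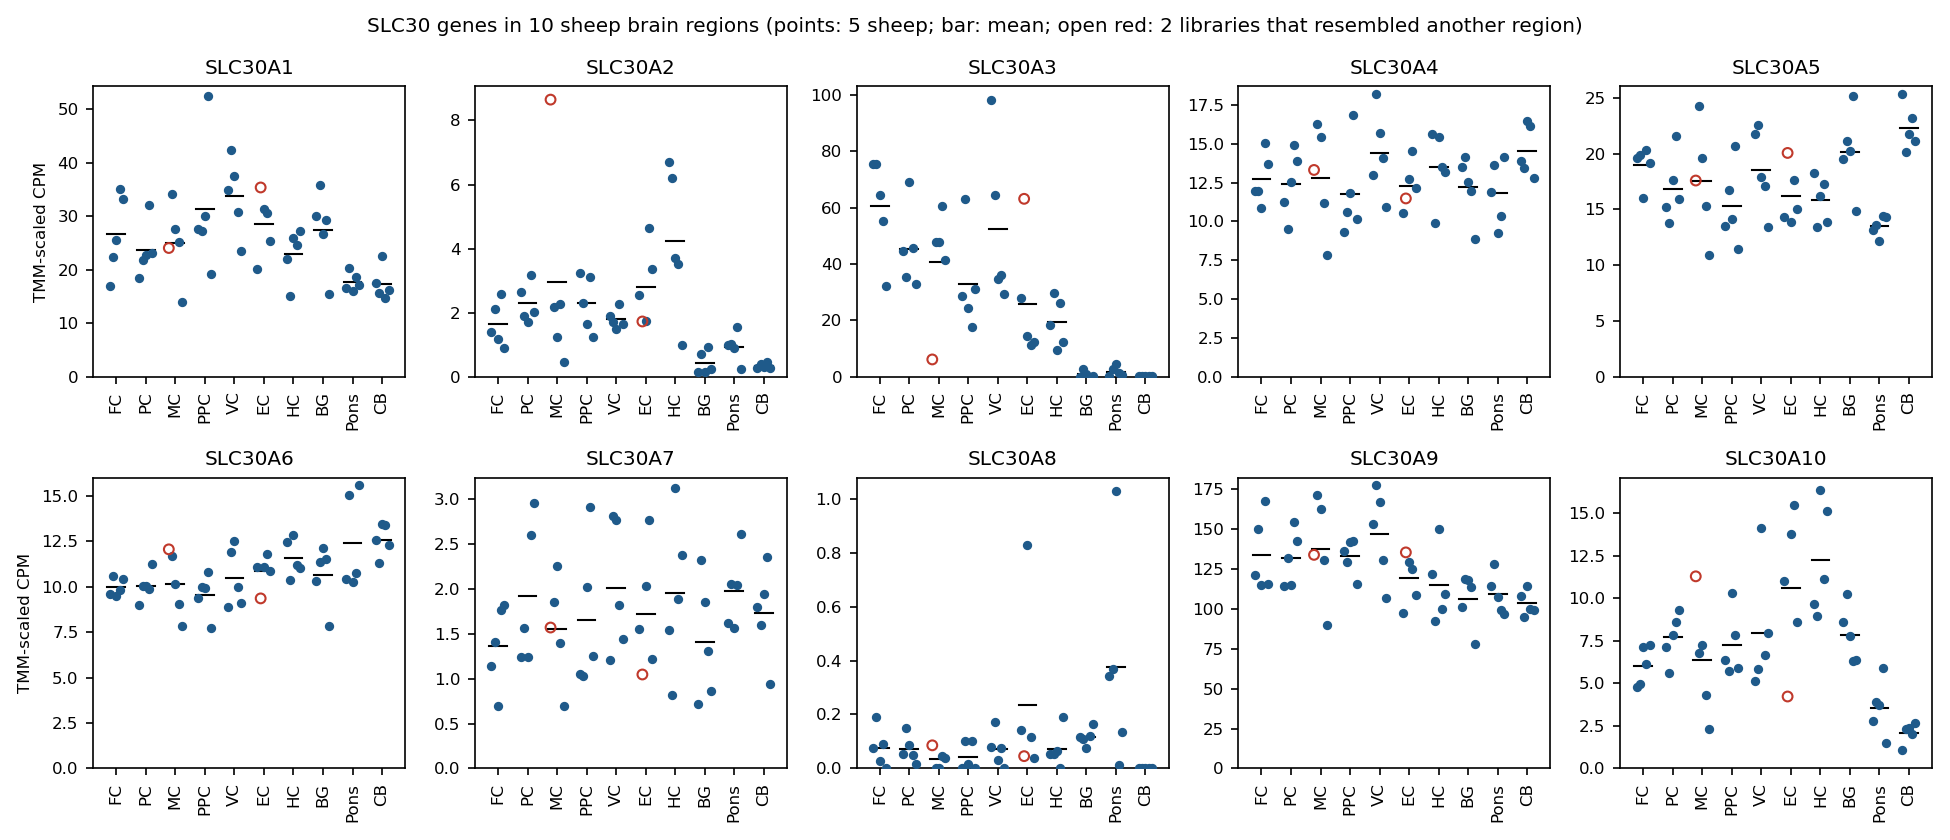
TMM-scaled CPM (y axes, each from 0) of the 10 members in FC, PC, MC, PPC, VC, EC, HC, BG, pons and CB of 5 sheep; points are libraries, bars are means, and the open red points are motor cortex of sheep 687 and entorhinal cortex of sheep 688. SLC30A3 fell from a mean of 60.6 in FC to 0.214 in CB, while the ranges of SLC30A4 overlapped throughout.

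Each region was also set against the other 9, as the mean of their log2 levels. A call then needed both an adjusted p under 0.05 and a change of at least 1 on the log2 scale in either direction. For SLC30A3 the low levels in pons, basal ganglia and cerebellum pulled that mean down. There were 17 calls over all members and regions. They came to 4 members in cerebellum (28.8% of all genes were called there), 2 in pons (18.7%), 2 in basal ganglia (10.3%), 2 in hippocampus (4.62%) and 2 in entorhinal cortex (2.24%). The other 5 regions had 1 each, SLC30A3 every time, beside 2.77% of all genes in frontal, 1.64% in motor, 2.46% in prefrontal, 2.66% in posterior parietal and 2.12% in visual cortex. The median log2 fold change of the 10 members was -0.45 in cerebellum, where it was -0.04 over all genes, and -0.26 in pons, where it was 0.03 over all genes.

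SLC30A3 accounted for 9 of the 17 calls. In frontal cortex the 5 sheep, in order of their numbers, had 75.6, 75.5, 64.4, 55.2 and 32.2 CPM, in visual cortex 98.2, 64.4, 34.7, 36.1 and 29.5, and in prefrontal cortex 44.7, 35.6, 69.0, 45.5 and 32.8. Posterior parietal values were 28.8, 63.2, 24.6, 17.5 and 31.0, and motor values were 6.19, 47.8, 47.7, 60.6 and 41.3. Apart from the motor library of sheep 687, no neocortical library lay below 17.5. Relative to the other regions, the log2 fold changes (± SE, edgeR's quasi-likelihood test) were 2.67 ± 0.34 in frontal (adjusted p = 8.3e-07), 2.45 ± 0.35 in visual (adjusted p = 7.2e-06), 2.22 ± 0.36 in prefrontal (adjusted p = 4.9e-05), 2.04 ± 0.36 in motor (adjusted p = 3.0e-04) and 1.71 ± 0.37 in posterior parietal cortex (adjusted p = 0.0020).

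Outside neocortex, SLC30A3 was measured in hippocampus at 18.5, 29.7, 9.52, 26.4 and 12.4 CPM and in entorhinal cortex at 27.8, 63.1, 14.4, 11.3 and 12.5. In plain means, entorhinal cortex (25.8) and hippocampus (19.3) lay below the 28.0 CPM of all 50 brain libraries. Their positive log2 fold changes arise against a mean of log2 levels that holds the 3 lowest regions. Hippocampus was not called by edgeR, and was with limma's voom (1.04). The entorhinal call, a log2 fold change of 1.32 ± 0.38 (adjusted p = 0.042 by edgeR), included the library of sheep 688 that resembled motor cortex. Without it and the motor library of sheep 687 the value was 0.66 and did not pass. The call was also lost with DESeq2 (1.32) and without sheep 687 (1.23), 688 (0.94), 690 (1.53), 694 (1.47) or 699 (1.42). The mean of the other 4 entorhinal libraries was 16.5 ± 7.66 (SD, n = 4).

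The 3 lowest regions were far below these. Pons held 0.197, 2.68, 4.48, 1.22 and 0.851 CPM of SLC30A3, basal ganglia 0.116, 2.98, 0.911, 0.103 and 0.204, and cerebellum 0.191, 0.172, 0.218, 0.207 and 0.282. No pons, basal ganglia or cerebellum library reached the lowest hippocampal one. In the order of region means, from frontal (60.6) through visual, prefrontal, motor, posterior parietal and entorhinal cortex to hippocampus (19.3), each neighbouring pair overlapped, and the only step without overlap was from hippocampus to pons (1.88). The log2 fold changes were -2.83 ± 0.56 in pons (adjusted p = 4.1e-05), -4.07 ± 0.62 in basal ganglia (adjusted p = 1.0e-06) and -6.37 ± 0.73 in cerebellum (adjusted p = 4.4e-10), all by edgeR's quasi-likelihood test.

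Markers of excitatory neurons differed between the regions too. The 4 markers used (SLC17A7, NRGN, CAMK2A and SLC17A6), all detected in each region, summed to 34.2 to 429.6 CPM of the plain totals in pons, 452 to 596 in cerebellum and 1306 to 2874 in basal ganglia, against 1939 to 5259 over cortex and hippocampus. The sum hides differences between the 4 markers. SLC17A7 alone was 7.93 against 349 TMM-scaled CPM in basal ganglia, and was not called in cerebellum (log2 fold change 0.69). The sum therefore does not rank the regions by their excitatory neurons. The part of these markers in the SLC30A3 pattern was not tested, and in bulk tissue fewer cells of a type and less RNA per cell cannot be told apart.

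SLC30A2, which loads zinc into secretory vesicles and is best known from the lactating mammary gland, was highest in hippocampus, at 6.69, 6.22, 3.72, 3.52 and 0.991 CPM in the 5 sheep. It was lowest in cerebellum, at 0.286, 0.396, 0.294, 0.480 and 0.282, and in basal ganglia, at 0.154, 0.718, 0.149, 0.926 and 0.245. Hippocampus and cerebellum did not overlap, and the library of sheep 699 was the low one in hippocampus. The log2 fold changes were 1.61 ± 0.32 in hippocampus (adjusted p = 5.4e-04), -2.41 ± 0.46 in cerebellum (adjusted p = 2.0e-05) and -1.995 ± 0.45 in basal ganglia (adjusted p = 5.9e-04) by edgeR's quasi-likelihood test. The highest brain library of all was motor cortex of sheep 687, at 8.65, where the other 4 motor libraries lay between 0.454 and 2.28. Motor cortex was not called, except without sheep 699 (1.19). Entorhinal cortex, at 0.96, was not called. It was called at 1.07 with the animal as a block and with voom, and at 1.20 without the 2 libraries that stood apart.

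SLC30A10, the manganese exporter, had 9.66, 9.00, 16.4, 11.1 and 15.2 CPM in hippocampus and 1.09, 2.34, 2.36, 2.03 and 2.65 in cerebellum. The ranges were separate. No library of frontal, prefrontal or posterior parietal cortex, visual cortex, entorhinal cortex or basal ganglia fell into the cerebellar range. Motor cortex (lowest library 2.31) and pons (lowest library 1.52) reached into the cerebellar range. The log2 fold change was -1.83 ± 0.28 in cerebellum (adjusted p = 3.6e-07) and 1.03 ± 0.22 in hippocampus (adjusted p = 0.0010, edgeR's quasi-likelihood test). The hippocampal value dropped just below the fold limit with voom (0.99) and without sheep 690 (0.99) or 699 (0.90). Entorhinal cortex, at 11.0, 4.23, 13.8, 15.5 and 8.60 CPM, overlapped hippocampus and passed on p alone, with a log2 fold change of 0.81. It was called at 1.05 without the 2 libraries that stood apart, where its mean of 12.2 lay beside 12.3 in hippocampus. Pons, at 2.78, 3.88, 3.73, 5.90 and 1.52 CPM, passed on p alone, with a log2 fold change of -0.93, and was called without sheep 688 (-1.01) or 694 (-1.19).

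SLC30A8, the zinc transporter of insulin granules in the pancreas, was close to the detection limit. It had 0 counts in all 5 cerebellar libraries, which allows at most 0.0105 CPM of the plain totals when 3 counts over the group are taken as the floor, and 356 counts over the other 45 libraries, a mean of 0.142 ± 0.228 (SD, n = 45). Cerebellum was thus at least 13.5-fold lower. Pons had 0.341, 0.368, 1.03, 0.0135 and 0.134 TMM-scaled CPM and a log2 fold change of 2.89 ± 0.55 (adjusted p = 3.5e-05, edgeR's quasi-likelihood test). Entorhinal cortex had 0.141, 0.0455, 0.827, 0.118 and 0.0382. Its call at 2.10 was lost without sheep 690 (0.68), 687 (2.25) or 694 (2.26), with the animal as a block (1.88), with DESeq2 (2.10) and with voom (1.68).

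The remaining members moved by small amounts. On p alone, without the fold limit, 8 members passed in cerebellum and 6 in pons, beside 60.7% and 48.3% of all genes. SLC30A1, the exporter of the plasma membrane, passed on p alone in cerebellum (log2 fold change -0.60) and pons (-0.51), with region means from 17.4 in cerebellum to 33.8 in visual cortex. SLC30A5 and SLC30A6, which pair with each other in the early secretory pathway, did so in cerebellum at 0.38 and 0.23 and in pons at -0.36 and 0.26. SLC30A9, a mitochondrial zinc transporter, did so in cerebellum at -0.29. SLC30A4 and SLC30A7 passed in no region, and their highest and lowest region means differed 1.24-fold and 1.47-fold.

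The importers were described beside them. Of 13 tested SLC39 genes, 11 differed over the regions, beside 76.7% of all genes, and 5 were called in cerebellum, beside 28.8%. There SLC39A4 (2.11 CPM against 0.394 in the other regions, log2 fold change 2.42), SLC39A14 (28.7 against 9.45, 1.59) and SLC39A5 (3.04 against 1.25, 1.26) were higher. SLC39A8 (2.52 against 5.42, -1.09) and SLC39A10 (75.6 against 167, -1.06) were lower in cerebellum. SLC39A3 was lower in pons (7.44 against 17.5, -1.16) and SLC39A12 in basal ganglia (19.9 against 40.5, -1.002).

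Of the 3 metallothionein list genes tested in sheep brain, MT3, the form abundant in neural tissue, was lower in cerebellum (71.5 CPM against 353, log2 fold change -2.27) and pons (152 against 344, -1.004). Among 11 tested partners and vesicle genes, 10 differed over the regions, beside 76.7% of all genes. SLC17A7, the glutamate transporter of the synaptic vesicles that carry SLC30A3, was lower in basal ganglia (7.93 against 349, -5.14) and pons (25.2 against 347, -3.27). It was higher in frontal cortex (1.38), motor cortex (1.38), visual cortex (1.25) and hippocampus (1.18), and not called in cerebellum, where SLC30A3 was lowest. AP3B2, a neuronal subunit of the adaptor that sorts SLC30A3 to vesicles, was higher in cerebellum (116 against 55.4, 1.07), as was TMEM163, a vesicular zinc transporter (26.3 against 10.7, 1.31). In pons TMC6 (38.8 against 6.85, 2.61) and TMC8 (6.15 against 1.46, 2.19), which form a complex with SLC30A1, were higher and AP3M2 (17.5 against 46.3, -1.35) was lower. TMC8 was lower in cerebellum (0.679 against 2.06, -1.39).

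The genes with patterns most like those of the members over the 50 brain libraries were listed by Spearman correlation, among genes with a mean of at least 10 CPM. The points share animals and regions, and the values are given without a p. For SLC30A3 they were PARM1 (0.951), NECAB3 (0.949), BRINP2 (0.943), FJX1 (0.934) and OLFM2 (0.933). For SLC30A2 the first was EXTL1 (0.868) and for SLC30A10 SLC7A11 (0.883), a cystine transporter. Positions of the sheep genes were not available. Whether EXTL1 or another gene lies beside SLC30A2 and shares its reads was therefore not checked. SLC30A8 had no gene above CHKA (0.635).

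In rat ovary 2 members rose and 2 fell against female brain. Slc30a2 and Slc30a7 were higher, and Slc30a3 and Slc30a10 were lower. This comparison is of whole organs from the same 14 animals. Of 9 tested members 4 were called by edgeR's quasi-likelihood test, 2 higher and 2 lower, beside 56.9% of all 20801 genes (27.7% higher and 29.2% lower). On p alone 8 passed, beside 88.6% of all genes, and the ranges did not overlap for 6 members, 3 above and 3 below, beside 16.6% and 18.6% of all genes. Slc30a8 did not pass the filter on low counts. The median log2 fold change was 0.16 over the 9 members and 0.02 over all genes.

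**Figure D2:**
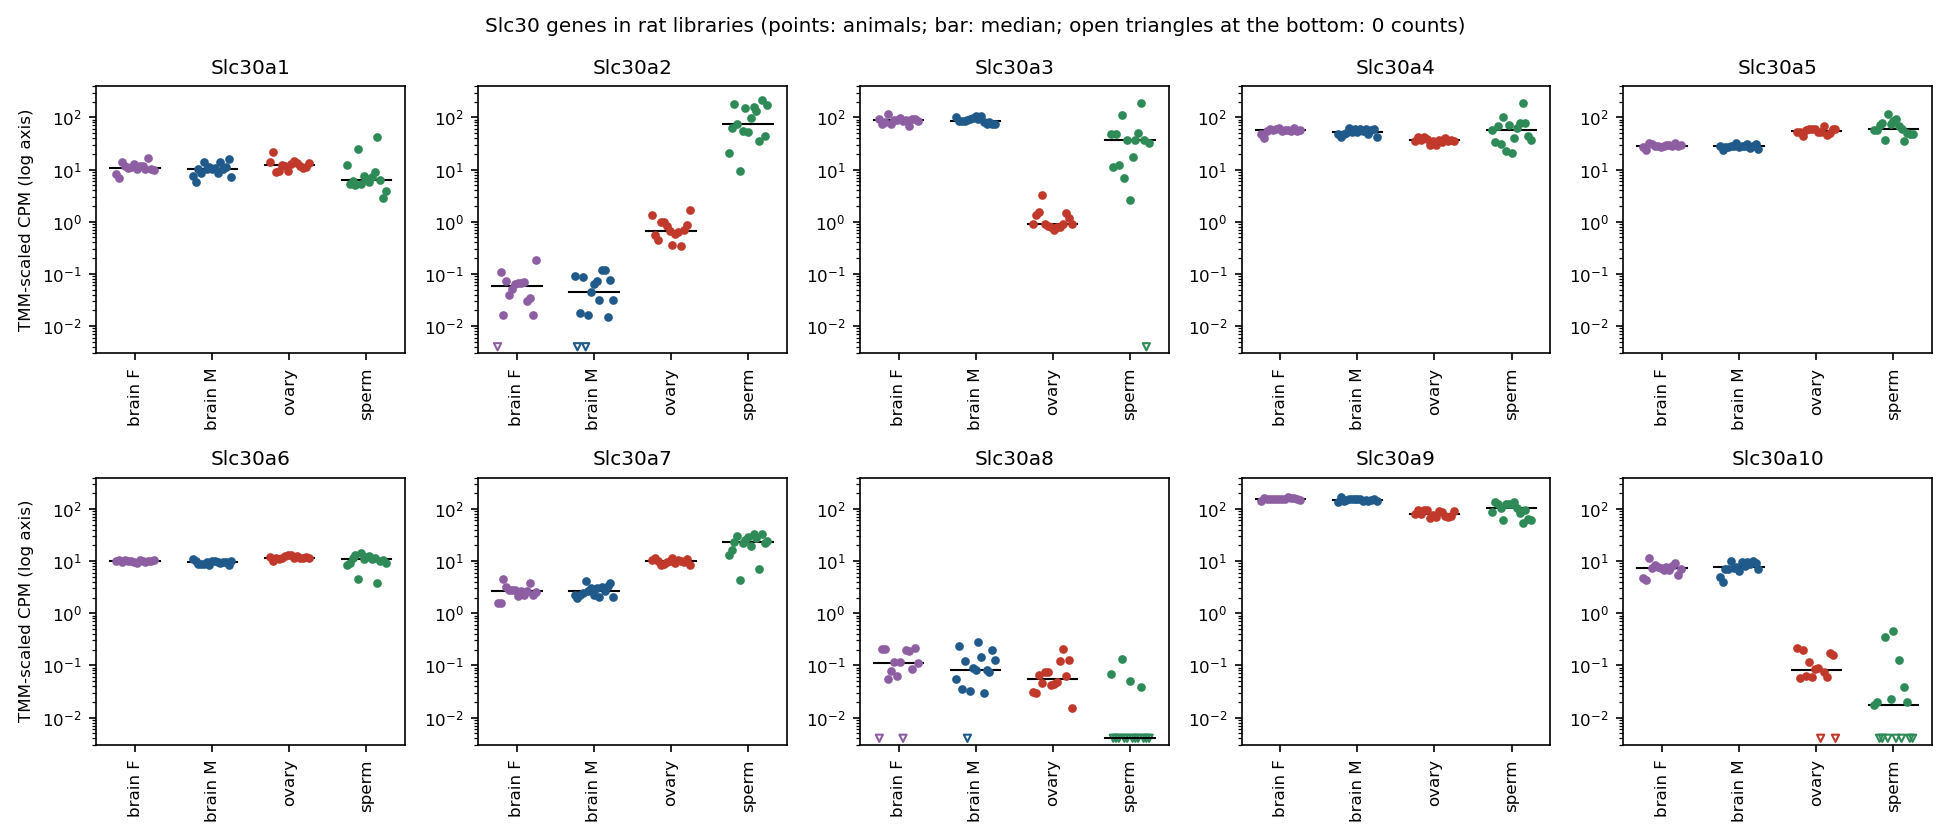
TMM-scaled CPM (log axes) of the 10 members in brain of 14 female and 15 male rats, in 14 ovaries and in 15 sperm libraries; points are animals, bars are medians, and open triangles at the bottom stand for 0 counts. Slc30a2 ran from medians of 0.0575 and 0.0446 in female and male brain to 0.675 in ovary and 74.6 in sperm, while Slc30a10 ran from 7.34 and 7.69 to 0.0802 and 0.0171.

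Slc30a2 ran from 0.339 through a median of 0.675 to 1.66 CPM in ovary and from 0 through 0.0575 to 0.182 in female brain. Every ovary lay above every brain, with a log2 fold change of 3.64 ± 0.30 (adjusted p = 1.3e-12, edgeR). Slc30a7, which supplies zinc to enzymes of the secretory pathway such as alkaline phosphatase, ran from 8.51 through 9.91 to 11.4 in ovary and from 1.59 through 2.65 to 4.48 in brain. Its log2 fold change was 1.87 ± 0.12 (adjusted p = 2.5e-15, edgeR), again with no overlap.

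Slc30a3 ran from 0.702 through 0.896 to 3.26 CPM in ovary and from 69.1 through 88.8 to 117 in female brain. All 14 ovaries were below all 14 brains, with a log2 fold change of -6.23 ± 0.20 (adjusted p = 4.8e-23, edgeR). Slc30a10 ran from 0 through 0.0802 to 0.214 in ovary and from 4.37 through 7.34 to 11.3 in brain, with a log2 fold change of -6.22 ± 0.30 (adjusted p = 1.3e-18, edgeR). Slc30a10 overlaps another annotated gene, LOC100911719, and the strand setting of the counting is not given in the sources used here, so its counts may hold reads of that gene. LOC100911719 had 10.2 to 14.3 CPM in the 29 rat brain libraries and 0 to 2 counts in the ovaries, so it was high and low in the same tissues as Slc30a10.

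The other 5 tested members differed by less than the fold limit. Slc30a5 (0.96) and Slc30a6 (0.24) were higher in ovary on p alone and Slc30a9 (-0.93) and Slc30a4 (-0.62) were lower, while Slc30a1 (0.16 ± 0.12) did not pass. Slc30a9 has an annotated pseudogene in GRCr8, with which its reads may be shared. Slc30a5, whose ranges did not overlap (44.7 to 67.7 in ovary, 24.0 to 32.6 in brain), reached the fold limit with upper quartile factors (1.03) and with plain totals (1.23).

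Of 13 importers 6 were called in ovary, 5 of them higher, beside 56.9% of all genes. The largest were Slc39a8 (41.4 CPM against 6.47, log2 fold change 2.69), Slc39a4 (5.19 against 1.04, 2.32) and Slc39a1 (153 against 35.4, 2.11), while Slc39a12 was lower (0.0277 against 1.92, -5.99). Mt1 (645 against 4.48, 7.18) and Mt2A (185 against 13.9, 3.74) were higher and Mt3 (14.2 against 255, -4.15) lower. Of 12 partners 7 were called, beside the same 56.9%, 3 of them higher, among them Tmc8 (2.73) and Tmc6 (1.68). Those lower with the largest changes were Slc17a7 (0.0439 against 760, -14.00), Tmem163 (0.192 against 37.6, -7.59) and Ap3b2 (5.13 against 132, -4.68).

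Female and male rat brain were compared over 8 members, Slc30a2 and Slc30a8 having been removed by the low-count filter. Slc30a3, for example, ran from 69.1 through 88.8 to 117 CPM in females and from 73.4 through 86.5 to 108 in males, and Slc30a9 from 139 through 157 to 169 and from 138 through 151 to 173. For all 10 members the ranges overlapped. edgeR called 0 of the 8 at an adjusted p below 0.05, beside 0.18% of 20570 genes, with 0 at an unadjusted p below 0.05, and DESeq2 and limma's voom called 0 as well. The log2 fold changes ran from -0.10 ± 0.12 for Slc30a10 to 0.11 ± 0.12 for Slc30a1.

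In rat sperm the largest difference was in Slc30a2. It ran from 9.23 through a median of 74.6 to 219 CPM in the 15 sperm libraries and from 0 through 0.0446 to 0.121 in male brain. Sperm was higher than the brain of the same rat in 15 of 15 animals and overlapped neither brain nor ovary, and the fitted log2 fold change was 10.73 ± 0.53. Because this contrast took part in choosing the family, the values and counts here are a description, from which nothing is read. Of 9 fitted members 4 passed the call rule, 3 higher and 1 lower, beside 59.1% of 20480 genes (27.7% higher and 31.5% lower). They did not overlap between sperm and brain in 5 cases, 3 above and 2 below, beside 5.54% and 14.4% of all genes. On plain totals Slc30a5, Slc30a7 and Slc30a9 overlapped brain, and Slc30a2 and Slc30a10 did not.

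**Figure D3:**
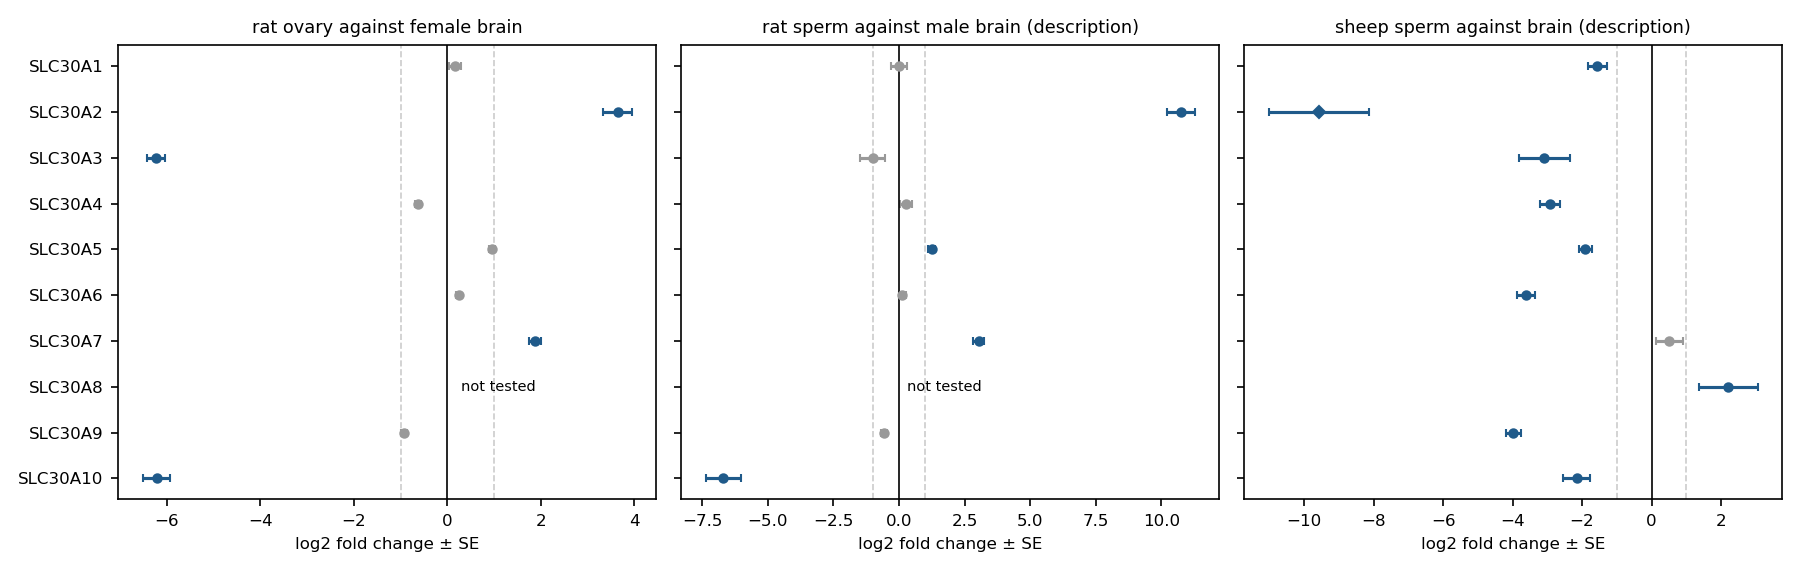
Log2 fold changes (x axes, ± SE) of the members in rat ovary against female brain, rat sperm against male brain and sheep sperm against sheep brain; blue points passed the call rule, grey did not, dashed lines mark a log2 fold change of 1 in either direction, and the diamond marks 0 counts in all sheep sperm libraries, where the fitted size depends on the prior count. In the sperm panels the colours are a description from which nothing is read. SLC30A2 stood at 10.73 in rat sperm and was undetected in sheep sperm.

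Slc30a7 ran from 4.37 through 23.4 to 32.8 CPM in rat sperm and from 1.97 through 2.62 to 4.08 in male brain, with a log2 fold change of 3.04 ± 0.22. Its neighbour Extl2, which lies 18 bases away in GRCr8, had 4.63 to 31.4 CPM in sperm and 59.1 to 83.7 in male brain. Whether reads were shared between them was not tested. Slc30a5 ran from 35.2 through 60.2 to 115 and from 23.9 through 28.2 to 31.8, with 1.25 ± 0.13, which fell under the fold limit with RLE factors (0.95), DESeq2 (0.95) and plain totals (0.89). Slc30a10 was the member lowest against brain, from 0 through 0.0171 to 0.446 in sperm and from 4.01 through 7.69 to 10.1 in brain, with -6.69 ± 0.67. The overlapping LOC100911719 was low there too, at 0 to 8 counts in the sperm libraries.

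Slc30a3 was not uniform among sperm libraries. It ran from 0 through 36.3 to 185 CPM, against 73.4 to 108 in male brain, and lay above the brain of the same rat in 2 of 15 animals. The fitted log2 fold change was -1.004. Among the alternatives it was -1.31 with plain totals, -1.12 with DESeq2 and -2.03 with voom. It was -1.86 with the animal as a block, -1.04 without rats 16 and 17 and -1.83 without libraries 3, 7 and 14. The library at 0 counts was number 16, one of those with few low counts. Slc30a9 ran from 53.7 through 104 to 136 against 138 to 173 in brain (-0.58), and Slc30a1, Slc30a4 and Slc30a6 overlapped brain with fitted values of 0.01, 0.28 and 0.13. Slc30a8 had a median of 0 and was not fitted.

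**Figure D4:**
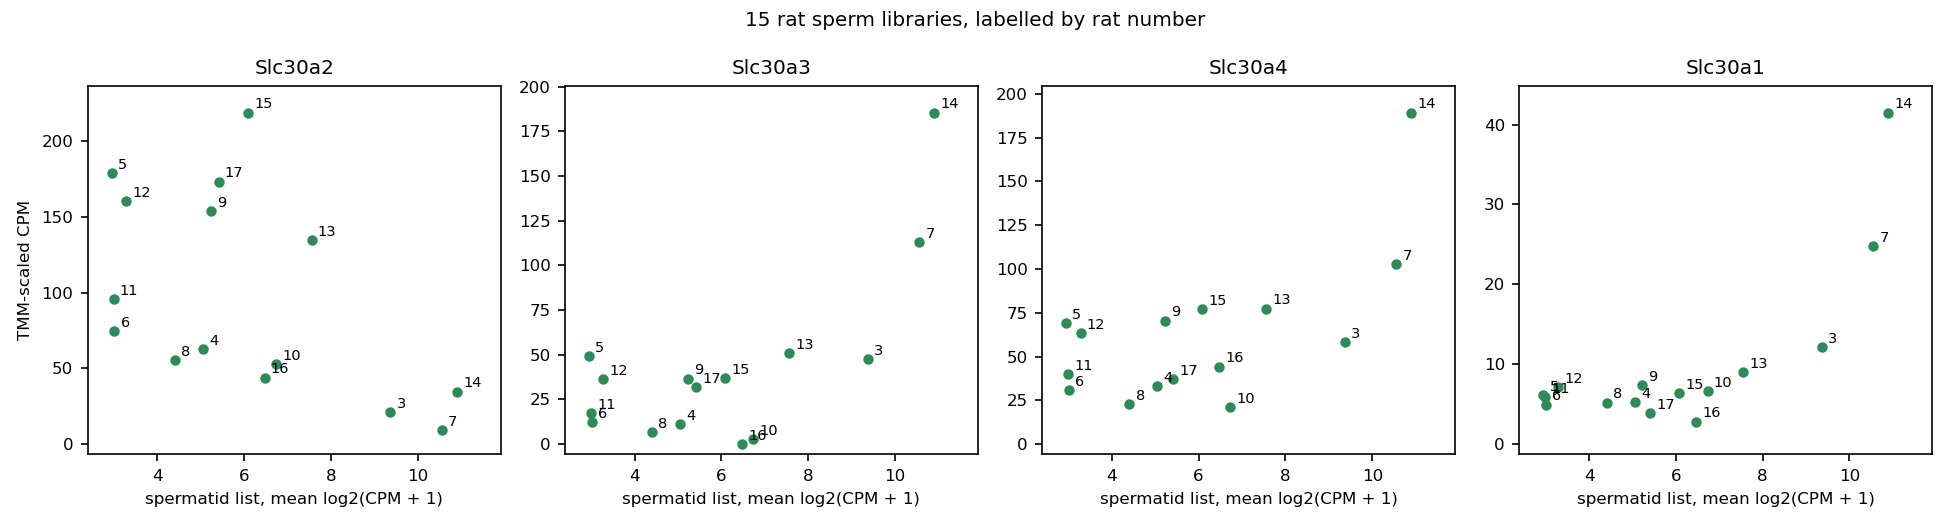
TMM-scaled CPM (y axes) of Slc30a2, Slc30a3, Slc30a4 and Slc30a1 in 15 rat sperm libraries against the mean log2(CPM + 1) of 10 spermatid and sperm markers (x axes), with each point labelled by rat number. Libraries 3, 7 and 14 lie at the right, with Slc30a2 between 9.23 and 34.7, below the 44.0 to 219 of the other 12.

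The sperm libraries differed in their spermatid markers, and several members differed with them. Mean log2(CPM + 1) of the 10 markers was 9.36, 10.55 and 10.89 in libraries 3, 7 and 14 and at most 7.55 in the other 12. Slc30a2 was 20.9, 9.23 and 34.7 CPM in those 3 and 44.0 to 219 in the others, so they did not overlap. Slc30a1 went the other way, at 12.1, 24.8 and 41.5 against 2.83 to 8.97. Slc30a3 was 47.5, 113 and 185 in those 3 and 0 to 50.9 in the others, and Slc30a4 was 58.3, 103 and 189 against 21.1 to 77.4. Slc30a6 and Slc30a7 were lower in the 3, at 3.79 to 8.30 against 9.20 to 14.3 and at 4.37 to 13.1 against 16.6 to 32.8. Slc30a5, at 35.2 to 57.1 in the 3 and 47.6 to 115 in the others, overlapped, as did Slc30a9, at 53.7 to 87.4 and 60.4 to 136. The libraries were separated by a measured list here, so no test is given. The share of all genes that separate these libraries is not given, so the separation is not read as a trait of the family. Summed CPM of the list did not order them in the same way: library 10, at 8094, was close to library 3, at 9750, and had 2.63 CPM of Slc30a3.

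Dnajc5g, a gene that starts 22 bases from Slc30a3 in GRCr8, had 1612, 2821 and 6166 counts in libraries 3, 7 and 14 and a median of 0 in brain. Whether reads of one gene were counted for the other is not known. The 12 markers of epididymis and vas deferens found in the rat table summed to 1816 to 11275 CPM of the plain totals in sperm, mostly Ces5a, and library 14 had the lowest sum and library 7 (2241) the next. Their part in the levels of Slc30a2 was not tested. The genes most like Slc30a2 over the 15 sperm libraries, by Spearman correlation, were Zdhhc8 (0.979), Hlf (0.979), Ctla2a (0.975), Plpp6 (0.975) and Nbdy (0.975).

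In sheep sperm SLC30A2 had 0 counts in all 5 libraries. With 3 counts over the group as the floor, this allows at most 0.0736 TMM-scaled CPM, against a mean of 1.98 in brain, so it was at least 26.9-fold lower. On plain totals the floor was 0.0146 against 2.38, or at least 162-fold lower. The contrast took part in choosing the family, and the counts that follow are a description from which nothing is read. Of the 10 members 9 passed the call rule against the mean of the 10 regions, 8 lower and 1 higher, beside 74.2% of 21859 genes (41.1% lower and 33.1% higher), and 5 members did not overlap brain, all below, beside 19.2% of all genes. Their median log2 fold change was -2.54, and it was -0.42 over all genes. With limma's voom 5 passed, and SLC30A3 (-3.54), SLC30A8 (2.21), SLC30A10 (-2.72) and SLC30A2, the member with no counts, did not.

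The levels in the 5 sheep sperm libraries, in order of sheep number, were low for most members. SLC30A9 had a mean of 7.57 ± 3.73 CPM (SD, n = 5) against 124 ± 23.3 (SD, n = 50) in brain, and SLC30A6 0.755 ± 0.728 (SD, n = 5) against 10.8 ± 1.64 (SD, n = 50). SLC30A5 had 4.30, 3.08, 2.63, 8.88 and 3.71 against a brain range of 10.9 to 25.3. SLC30A3 had 2.55, 0.243, 6.26, 0 and 0.112, SLC30A1 2.28, 20.8, 2.96, 10.5 and 4.27, and SLC30A10 1.88, 0, 0.658, 2.89 and 1.69. The last 3 overlapped brain on the TMM scale. On plain totals SLC30A3 still overlapped, while SLC30A1 and SLC30A10 lay below every brain library. SLC30A4 had a mean of 1.75 ± 1.38 (SD, n = 5) against 12.9 ± 2.31 (SD, n = 50).

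SLC30A7 and SLC30A8 did not share this direction on the TMM scale, with log2 fold changes of 0.51 and 2.203. SLC30A8 was detected in 2 of the 5 libraries, at 0.777 and 0.562 CPM, and its log2 fold change was 1.35 without sheep 694 and 1.71 without sheep 699. Scaling by plain totals moved the median of all genes by -2.37 in this comparison, and on that scale both were lower in sperm, at -1.71 and -0.10. In the other comparisons plain totals moved the median by -0.33 to 0.28, and no direction of a called member changed. The 7 neutrophil markers summed to 1580 to 40018 CPM of the plain totals in sheep sperm and the 6 squamous epithelium markers to 783 to 21358. Their part in these values was not tested.

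SLC30A2 and SLC30A5 differed in direction between the species, each with all 5 sheep lower in sperm than in their own brain and all 15 rats higher on the TMM scale. For SLC30A5 the count was 14 of 15 rats on plain totals. SLC30A10 was lower in sperm in all 5 sheep and all 15 rats. Of all genes tested, 41.1% were called lower in sheep sperm, and in rat sperm 27.7% higher and 31.5% lower. The share with either pattern in every animal is not given, so neither is read as a trait of these members. For SLC30A2 the direction took part in choosing the family.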

How the data were processed

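Counts of reads per gene were deposited raw, 1 column per library, for 55 sheep and 58 rat libraries. The authors trimmed reads of 150 bases with Trimmomatic 0.39, aligned them with STAR 2.7.5a to ARS-UI_Ramb_v3.0 (sheep) or GRCr8 (rat) and counted with Rsubread 2.20.0, per the labels. For strand and multiply mapping reads, the settings are not given in the sources used. Tests used the quasi-likelihood method of edgeR 4.0.16 (R 4.3.3) on the counts, with TMM factors, filterByExpr by group and a prior count of 0.125, and p-values were adjusted over all tested genes after Benjamini and Hochberg. The method was tested on simulated data. Each SE is the size of the log2 fold change divided by the square root of the F statistic, and is not reported by edgeR. DESeq2 1.42.0, limma 3.58.1 (voom with quality weights), other scalings, no filter, a block for the animal and left-out libraries were alternatives. The members, lists and tests were chosen with earlier results of these data known.

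Samples of the same number came from the same animal, per the labels, which pairs them. Deviations from the group means correlated at a median of 0.184 between sheep regions, 0.0370 between sheep sperm and brain, 0.0494 between rat sperm and brain and close to 0 between ovary and brain (range -0.137 to 0.0989). The block was kept as the alternative. Named were all 10 members, up to 3 called genes per direction of each of 3 zinc lists that averaged 1 CPM or more in the higher group, and the 5 genes most like a member, without placeholder symbols. Of the last, only the first is given for some members. The floors (3 counts) cover counting error only, and reads were not marked with molecular identifiers as far as the labels say. A marker gene of the lists is not reported here.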

Additional observations from a re-analysis of the deposited data

Results flagged for a closer look

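In groups of 5 sheep libraries, 5 of 108 member and group combinations had a library whose gap to the next exceeded Dixon's limit. That limit flags 1 in 20 independent, normally distributed sets. These combinations share animals and libraries, so the count is not read against that rate. SLC30A3 in basal ganglia was 2.98 CPM in sheep 688 and 0.103 to 0.911 in the other 4. SLC30A8 in entorhinal cortex was 0.827 in sheep 690 and 0.0382 to 0.141 in the others. SLC30A2 in motor cortex was 8.65 in sheep 687, the library that resembled hippocampus, and 0.454 to 2.28 in the others. SLC30A5 was 16.0 in frontal cortex of sheep 690, against 19.1 to 20.4, and 8.88 in sperm of sheep 694, against 2.63 to 4.30.

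On the TMM scale SLC30A2 and SLC30A5 were lower in sperm than in the animal's own brain in all 5 sheep and higher in all 15 rats. For SLC30A2 this took part in choosing the family and is repeated as a description. On plain totals SLC30A5 was higher in 14 of 15 rats. The share of all genes with such a pattern is not given. The difference between the species was not tested.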

How the results depend on the processing

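Of the tested counts of members called, that over the sheep regions moved by more than 1.5 times. Differences were called there for 8 members and for 5 to 7 with 1 sheep left out, the lowest without sheep 687. Over all genes 16224 of 21147 were called, and 14389 of 21170 without sheep 687. Region calls numbered 17, and 14 to 17 with 1 sheep left out. Plain totals reversed SLC30A7 (-1.71) and SLC30A8 (-0.10) in sheep sperm, and the shift of all genes on that scale is given above. The block for the animal left 8 members called over the regions, 17 region calls and 4 members in ovary. Ovary gave 4 or 5 members under every alternative, and the sexes 0. Among values of single members, 27 lost and 17 gained a call with the same direction, and apart from the reversals named the others kept their side of the threshold. These counts include the sperm contrasts, for which they are a description. In sheep sperm SLC30A8 (12), SLC30A6 (39), SLC30A3 (42), SLC30A10 (57), SLC30A4 (72) and SLC30A7 (122) rest on few counts over the 5 libraries, as do Slc30a8 in rat and, over the group, Slc30a10 in rat sperm (48) and Slc30a2 in male rat brain (49).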
